A study of Mus musculus with 16 samples.

Results

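Cytosolic ribosomal protein genes were followed in mouse liver across 4 genotypes of CerS2. They were chosen by name from the array's value table, as every symbol made of Rpl or Rps and a number, with Rplp0, Rplp1, Rplp2 and Rpsa, and without pseudogenes named -ps and without the Rps6k kinases. The rule found 80 genes, and 77 of them were among the 31511 genes bright enough to test. Of the 80, 27 encode proteins of the small (40S) subunit, 43 encode proteins of the large (60S) subunit, and 10 are paralogs, retrogenes or other copies that share the name. The remaining 3, Rpl39, Rpl39l and Rpl3l, were well above background on 0 of 16 arrays and were not tested. Some further members of the 2 subunits, among them Rps10, Rps28, Rpl23a, Rpl36 and Rpl38, were paired with no probe and were not analysed here.

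Ribosomes are built in the nucleolus, where ribosomal RNA is transcribed, modified and folded together with ribosomal proteins that have been made in the cytoplasm and imported. The messages of nearly all ribosomal proteins start with a C followed by a run of pyrimidines, the terminal oligopyrimidine (TOP) tract, through which mTOR and the RNA-binding protein Larp1 set how much of the message is translated. Many ribosomal protein genes also carry small nucleolar RNAs (snoRNAs) in their introns. These are cut from the spliced introns and guide the methylation or pseudouridylation of ribosomal and other RNAs. Hepatocytes secrete large amounts of plasma protein and hold many ribosomes.

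Liver RNA came from 16 male mice, 6 weeks old, on a mixed background of 75% C57BL/6 and 25% SV129, with 1 one-colour array per mouse and 4 mice per genotype. CerS2 is ceramide synthase 2, the enzyme that makes ceramides with very long acyl chains, and the series asks what its catalytic activity does to transcription in the liver. The genotypes are WT, CerS2 H/A (condition HA), CerS2 Del (condition delHox) and CerS2 Flox (condition delneo). What the Del and Flox alleles contain is not given in the labels, no treatment is named for any group, and no probe carried the name Cers2, so the genotypes could not be checked against the engineered gene. The mice are separate animals, and replicate numbers only name them.

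All values are log2 values that the authors had made comparable by quantile normalisation, so a difference of 1 is a 2-fold change and says nothing about total RNA per cell. In bulk liver, fewer cells of a type and less RNA per cell cannot be told apart. Between 51.7% and 65.1% of probes were well above background on an array, 0 spots were saturated, and the number of mice limits the precision. Before scaling, the 75th percentile of the signal was 109.3 to 173.1 in H/A and 86.0 to 114.8 in the other 12 arrays. Slide 1 held 3 H/A, 2 WT, 1 Del and 2 Flox arrays by the labels, and slide 2 held 1, 2, 3 and 2. A gene is called when its adjusted p, from limma with Benjamini-Hochberg adjustment over all 31511 genes, is under 0.05. The words rose and fell mark called genes, and intervals are 95% intervals of single genes.

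Runs of pyrimidines, as in a TOP tract, lie near the annotated start of many of these genes. The following windows of 41 bases, from RefSeq (GRCm38.p6), are centred on the annotated start and show members with and without a run of at least 8 C or T bases, which is in capitals. Rps12 (chr10:23787189-23787229, minus strand), Rpl15 (chr14:18270966-18271006, minus strand) and Rpl13a (chr7:45128725-45128765, minus strand) have one, and Rpl41 (chr10:128549148-128549188, minus strand) and Rpl37a (chr1:72711240-72711280, plus strand) do not.
Rps12: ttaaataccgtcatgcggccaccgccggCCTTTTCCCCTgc
Rpl15: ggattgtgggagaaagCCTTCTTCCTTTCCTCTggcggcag
Rpl13a: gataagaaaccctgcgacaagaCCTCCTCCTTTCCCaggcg
Rpl41: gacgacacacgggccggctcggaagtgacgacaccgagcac
Rpl37a: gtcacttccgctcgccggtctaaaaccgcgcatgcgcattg
The runs in Rps12, Rpl15 and Rpl13a are 11, 17 and 14 bases long. Such a run, read on the gene's own strand, lay within 20 bases of the annotated start in 30 of the 63 members with a window (47.6%), against 18.8% of all 27025 genes with one. Annotated starts can differ from those used in liver, so a missing run says only that the letters are not in this window. A run was sought on either side of the start and needed no C at the start, so it need not be a TOP tract.

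The array measures each gene with a probe, and the report turns on a few of them. Rpl3, the large-subunit protein near the peptidyl transferase centre, has 2 kept probes in its coding sequence. An intron of Rpl3 holds Snord83b, so its probe reads another product of the same gene. Snora21 lies in Rpl23 and is one of the snoRNAs that were below background on every Del array. All are printed in lower case, since no part of them is singled out.
Rpl3, brighter probe: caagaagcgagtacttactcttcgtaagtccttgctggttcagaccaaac
Rpl3, other probe: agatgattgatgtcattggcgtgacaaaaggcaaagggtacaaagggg
Rps12: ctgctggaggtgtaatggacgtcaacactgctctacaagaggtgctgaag
Snord83b: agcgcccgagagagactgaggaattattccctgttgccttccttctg
Snora21: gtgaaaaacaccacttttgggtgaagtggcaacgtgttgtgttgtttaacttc
Where a gene had several probes, the brightest over all 16 arrays stood for it, and levels of different probes are not set against each other.

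Averaged over the 77 tested genes, the level differed little between genotypes, by less than the fold that single members reached. Relative to the WT mean, the 4 H/A arrays lay at 0.08, 0.08, 0.29 and 0.18 on the log2 scale, and the 4 Del arrays at 0.17, -0.05, 0.35 and 0.08. The 4 Flox arrays lay at -0.02, -0.12, -0.24 and -0.11, all below every H/A array. The WT arrays lay at -0.01, 0.26, -0.18 and -0.07, and WT replicate 2 lay among the H/A and Del arrays. The group means were 0.16 ± 0.10 for H/A, 0.14 ± 0.17 for Del, -0.12 ± 0.09 for Flox and 0 ± 0.19 for WT (SD, n = 4 each). Both subunits showed the same order, with the 60S members at 0.35 and the 40S members at 0.21 on H/A replicate 3. Within a genotype, the median SD of a member between mice was 0.15 in H/A and Flox, 0.20 in WT and 0.22 in Del.

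**Figure D1:**
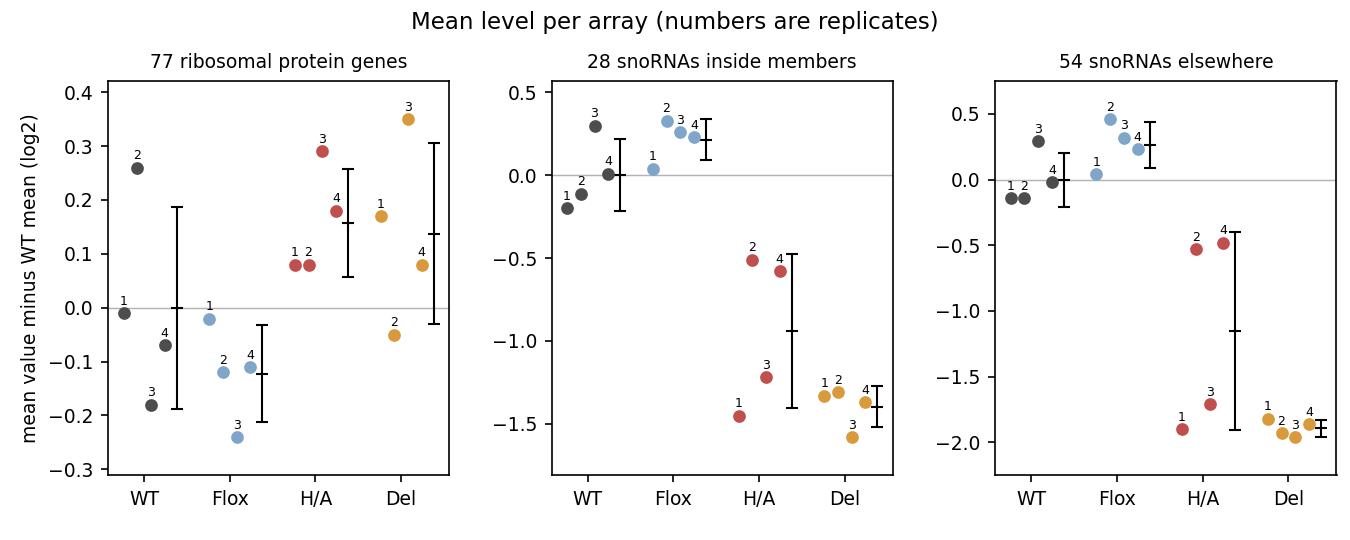
Mean log2 value of 77 ribosomal protein genes, of 28 snoRNAs inside them and of 54 snoRNAs elsewhere, each minus its mean over the 4 WT arrays, for every array (points, numbered by replicate) with the group mean and SD (bars). The ribosomal protein genes of the H/A and Flox arrays do not overlap, while the snoRNAs of H/A replicates 1 and 3 and of all 4 Del arrays lie lowest.

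Against WT, almost no ribosomal protein gene was called. In H/A, 0 of 77 members were called in either direction, where 10.0% of all 31511 genes were called, 7.08% of them higher and 2.97% lower. The median member difference was 0.18, 62 of 77 were positive, and 14 had an unadjusted p under 0.05. The smallest p-values belonged to Rpl37a, at 0.33 (0.08 to 0.58, adjusted p = 0.0801), Rps2, at -0.41 (-0.72 to -0.09, adjusted p = 0.085), and Rpl32, at 0.38 (0.08 to 0.67, adjusted p = 0.0866). In Del, 1 member was called where 13.2% of all genes were, 8.85% higher and 4.37% lower. Rpl37a, a zinc-finger protein of the large subunit, rose in Del by 0.52 (0.27 to 0.77, adjusted p = 0.00875). The median in Del was 0.15, with 59 of 77 positive and 10 at an unadjusted p under 0.05. Rps18 followed at 0.32 (adjusted p = 0.0585) and Rpl15 at 0.63 (adjusted p = 0.072). The median over all genes was -0.09 in H/A and -0.11 in Del. Over the 14257 named genes seen on every array it was -0.04 and -0.06.

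Among arrays left out in turn, WT replicate 2 changed the number of members called against WT most. Without it, 12 members were higher and 1 lower in H/A, and 9 were higher in Del. With each array weighted by its agreement with the others, 26 were higher and 4 lower in H/A, and 3 were higher in Del.

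Against Flox, many members were higher in H/A and in Del. In H/A, 27 of 77 members rose (35.1%) and 2 fell (2.6%), where 33.2% of all genes were called, 15.9% higher and 17.3% lower. The share higher exceeded, and the share lower lay under, that of the 14257 named genes seen on every array, of which 22.1% were higher and 18.9% lower. The median member difference was 0.30, against -0.14 for all genes and -0.05 for those named genes. In Del, 23 members rose (29.9%) and 0 fell, where 34.7% of all genes were called, 16.6% higher and 18.1% lower, and 22.5% of the named genes seen on every array were higher. The median was 0.29, against -0.14 for all genes and -0.05 for those named genes. The H/A and Flox arrays did not overlap for 35 members higher and 2 lower in H/A, and across all genes such separation occurred in 16.1% and 19.5%. For Del, 20 members lay wholly above Flox and 0 wholly below, with 15.9% and 17.6% for all genes. Both comparisons share the 4 Flox arrays.

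**Figure D2:**
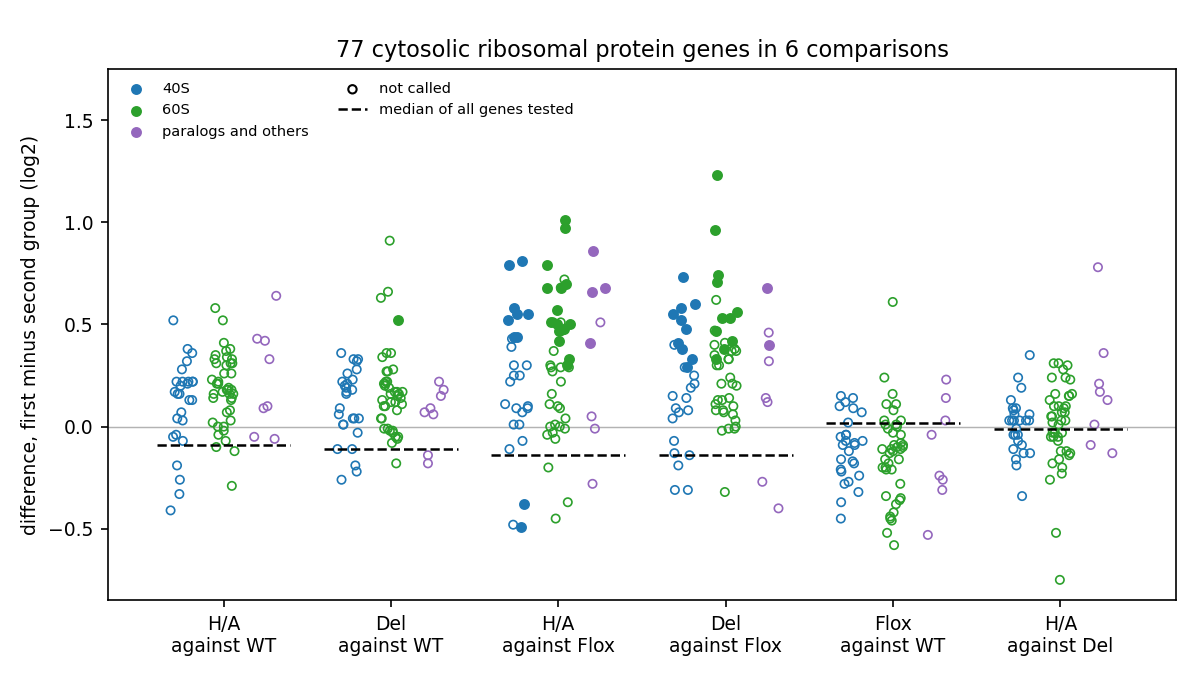
Difference in log2 value of each of the 77 tested members in 6 comparisons, first group minus second, coloured by subunit, with called genes filled and the median of all 31511 genes as a dashed line. Filled points lie in the H/A and Del comparisons with Flox, plus Rpl37a in Del against WT, and 2 filled points, Rps2 and Rps15a, lie below 0.

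No member was called between the Flox and WT arrays themselves. Of 77 members, 0 passed the threshold, where 0.0222% of all genes were called, and 6 had an unadjusted p under 0.05. All 6 of these were lower in Flox. They were Rpl41, Rpl7, Rpl7l1, Rps12, Rps3a1 and Rps4l, with Rps4l at -0.53 (-1 to -0.06, adjusted p = 0.802). The median was -0.11, with 57 of 77 members negative. Between H/A and Del, 0 members were called where 0.0127% of all genes were, the median was 0.03, and 2 members had an unadjusted p under 0.05. These were Rpl10l, higher in H/A by 0.78 (0.17 to 1.39, adjusted p = 0.54), and Rpl29, at -0.75 (-1.5 to -0.01, adjusted p = 0.627).

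Among large-subunit members, 15 of 42 rose in H/A against Flox and 11 of 42 rose in Del, and 0 fell in either. The largest rise in H/A was that of Rpl3. It read 9.75, 9.88, 10.22 and 9.88 in H/A. Values were 9.80, 9.23, 9.94 and 9.54 in Del, 9.16, 8.65, 8.73 and 9.15 in Flox, and 9.29, 10.03, 9.04 and 9.07 in WT. Every H/A and Del array lay above every Flox array, and WT replicate 2 lay among the H/A arrays. Rpl3 was higher than in Flox by 1.01 in H/A (0.54 to 1.48, adjusted p = 0.00593) and by 0.71 in Del (0.24 to 1.18, adjusted p = 0.0257). Its other probe gave 0.33 in H/A (adjusted p = 0.142) and 0.29 in Del (adjusted p = 0.192), so the size of the rise depends on the probe.

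Rpl41, a very short, basic protein that bridges the subunits, read 11.07, 11.01, 11.62 and 11.01 in H/A and 11.26, 10.50, 10.97 and 11.03 in Del. Its Flox values were 10.56, 10.03, 10.15 and 10.09, and its WT values 10.68, 11.15, 10.36 and 10.46. H/A and Flox did not overlap, while Del replicate 2 lay below Flox replicate 1. It rose by 0.97 in H/A (0.53 to 1.41, adjusted p = 0.00529) and by 0.74 in Del (0.29 to 1.18, adjusted p = 0.0172). Rpl15, a core protein of the large subunit, read 7.85, 8.10, 8.65 and 8.24 in H/A. Values were 8.57, 8.25, 9.09 and 7.97 in Del, 7.45, 7.73, 7.47 and 7.37 in Flox, and 7.82, 8.23, 7.64 and 7.69 in WT. All 8 H/A and Del arrays lay above all 4 Flox arrays. Rpl15 rose by 0.70 in H/A (0.23 to 1.18, adjusted p = 0.0273) and by 0.96 in Del (0.49 to 1.44, adjusted p = 0.00661).

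Rpl37a read 14.08, 14.06, 14.30 and 14.09 in H/A and 14.47, 14.11, 14.46 and 14.27 in Del. Its Flox values were 13.75, 13.77, 13.79 and 13.90 and its WT values 13.85, 13.99, 13.61 and 13.77. Flox and WT lay in the same range, below all 8 H/A and Del arrays. Against Flox it rose by 0.33 in H/A (0.08 to 0.58, adjusted p = 0.043) and by 0.53 in Del (0.28 to 0.78, adjusted p = 0.00553). The largest rise in Del was that of Rpl21, at 1.23 (0.65 to 1.82, adjusted p = 0.00541), but its probe was dim and well above background on 13 of 16 arrays. Rpl21 read 4.66, 4.08, 5.06 and 4.36 in Del and 2.62, 3.93, 3.24 and 3.44 in Flox. In H/A it read 4.01, 4.06, 3.87 and 4.17, a difference of 0.72 from Flox (adjusted p = 0.055).

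**Figure D3:**
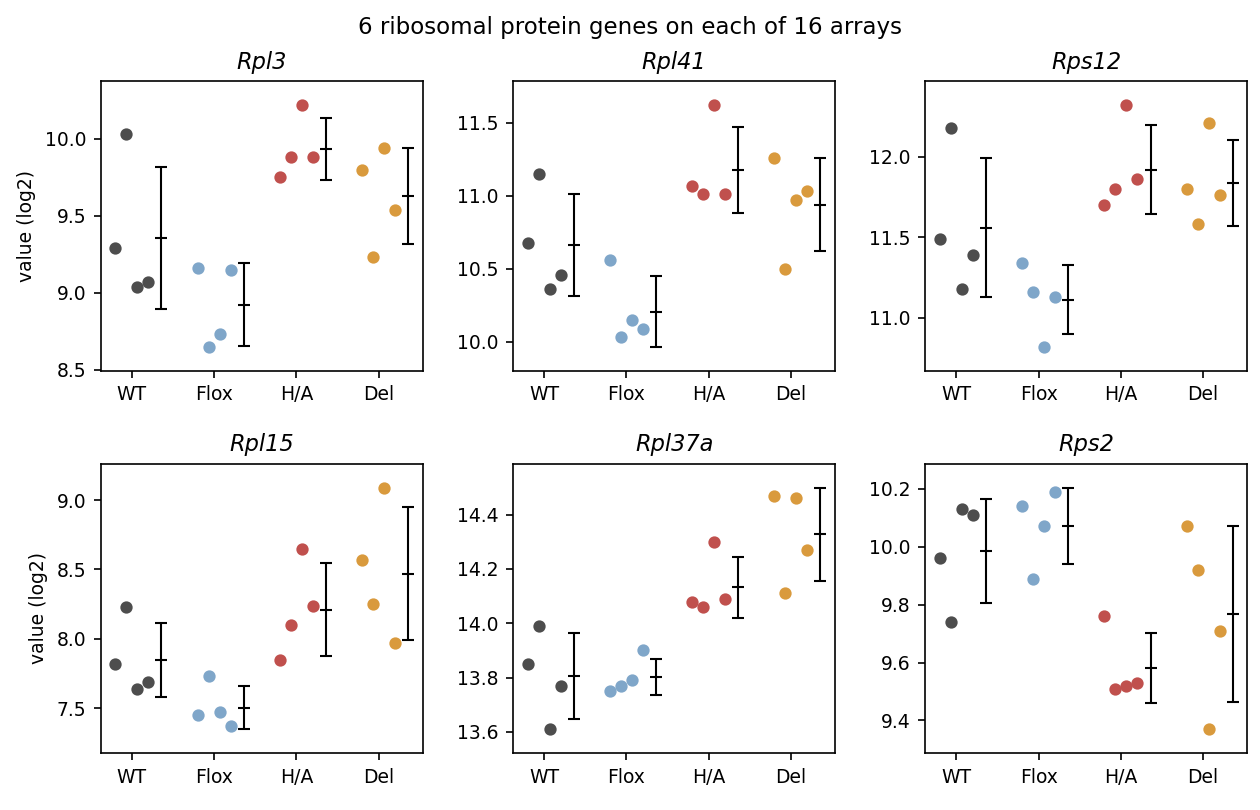
Log2 values of Rpl3, Rpl41, Rps12, Rpl15, Rpl37a and Rps2 on each of the 16 arrays (points, by genotype) with the group mean and SD (bars); each panel has its own axis range and does not start at 0. WT replicate 2 is the highest WT point in all panels but that of Rps2, where it is the lowest.

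Other large-subunit members that rose in H/A against Flox included Rpl7, Rpl12, Rpl10, Rpl10a, Rpl13a, Rpl23, Rpl32, Rpl4, Rpl5 and Rpl31, with differences from 0.79 for Rpl7 down to 0.30 for Rpl31. In Del they were Rpl7, Rpl23, Rplp1, Rplp0, Rpl10a and Rpl31, from 0.56 for Rpl7 to 0.33 for Rpl31. Rplp0 and Rplp1 belong to the stalk, the arm of the large subunit that recruits elongation factors. Against Flox, Rplp0 rose in Del by 0.42 (0.16 to 0.69, adjusted p = 0.0211), and Rplp1 rose by 0.47 (0.15 to 0.78, adjusted p = 0.0265). Rplp2, their partner in the stalk, differed by 0.13 (-0.14 to 0.39, adjusted p = 0.42). In H/A the values were 0.30 for Rplp0 (adjusted p = 0.077), 0.29 for Rplp1 (adjusted p = 0.132) and 0 for Rplp2 (adjusted p = 0.98). Rpl5 and Rpl11 bind Mdm2 when ribosome assembly is disturbed. Rpl5 rose in H/A by 0.42 (0.12 to 0.73, adjusted p = 0.0367), and Rpl11 was at -0.37 (-0.93 to 0.2, adjusted p = 0.285). The other kept probe of Rpl5 gave 0.15 (adjusted p = 0.524 in the fit of all probes).

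Among the 27 small-subunit members, 8 rose and 2 fell in H/A against Flox, and 10 rose and 0 fell in Del. Rps12 rose most. It read 11.70, 11.80, 12.32 and 11.86 in H/A. Values were 11.80, 11.58, 12.21 and 11.76 in Del, 11.34, 11.16, 10.82 and 11.13 in Flox, and 11.49, 12.18, 11.18 and 11.39 in WT. The H/A and Del arrays lay above all Flox arrays, and WT replicate 2 reached 12.18. The rise was 0.81 in H/A (0.36 to 1.26, adjusted p = 0.0128) and 0.73 in Del (0.28 to 1.17, adjusted p = 0.019). Rps13, Rps3a1, Rps20, Rps23 and Rps4x rose in both comparisons, with Rps13 at 0.79 in H/A and 0.60 in Del. Rps16, Rps24 and Rps29 rose in Del, by 0.33, 0.41 and 0.29. Rps6, the target of the S6 kinases, was at 0.11 in H/A (adjusted p = 0.516) and 0.08 in Del (adjusted p = 0.633).

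Rps2 and Rps15a moved the other way in H/A. Rps2 sits at the entry of the messenger RNA channel. It read 9.76, 9.51, 9.52 and 9.53 in H/A. Values were 10.07, 9.92, 9.37 and 9.71 in Del, 10.14, 9.89, 10.07 and 10.19 in Flox, and 9.96, 9.74, 10.13 and 10.11 in WT. All H/A arrays lay below all Flox arrays, and the Del arrays overlapped both. Against Flox, Rps2 fell by 0.49 in H/A (adjusted p = 0.0225) and was at -0.31 in Del (adjusted p = 0.113). Rps15a fell by 0.38 in H/A (adjusted p = 0.0345), from 7.50, 7.24, 7.51 and 7.36 in Flox to 7.21, 6.94, 6.93 and 7.03. Unscaled, both differences turned to 0.14, where the median of all genes stood at 0.31 and that of the members at 0.90, so both still lay under both medians. Of the 51 bases of the Rps2 probe, 43 match the first bases of the transcript, from base 8 after the annotated start, so it reads the 5′ end of the message. The probes of Rpl35, Rpl37 and Rps15 also overlap the first 50 bases, and that of Rps19 matches the sequence upstream of the annotated start, from base -122, and was well above background on 6 of 16 arrays.

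A few arrays carried much of these counts. Without H/A replicate 3, 9 members rose in H/A against Flox and 0 fell, without Flox replicate 3, 13 rose and 1 fell, and without H/A replicate 2, 16 rose and 0 fell. The 2 falls also dropped to 1 without H/A replicate 4 and to 0 without Flox replicate 1 or 4. Without Del replicate 3, 5 rose in Del, without Flox replicate 3, 7, without Flox replicate 2, 13, and without Del replicate 1 or 4, 15. The median difference moved less, from 0.26 to 0.32 in H/A and from 0.19 to 0.32 in Del. Slide 1 alone, with 3 H/A, 1 Del and 2 Flox arrays, gave medians of 0.22 and 0.20 with 0 members called, and slide 2 alone gave 0.39 and 0.32 with 0 and 3 called. With the slide of the labels as a block, 25 members rose in H/A and 29 in Del. All 16 columns of values matched the scanner file at the label's slide and position best. With the slide of each listed file's name as a block instead, 0 rose in H/A and 20 in Del, and with the scanner files taken as listed, 0 rose in either. Those file names put every H/A array on slide 1 and every Del array on slide 2. Only replicate 4 of WT was on slide 2 by file name, and only replicate 4 of Flox on slide 1. That block was therefore estimated from WT and Flox alone, and H/A shared its slide with a single Flox array.

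The paralogs and other copies behaved unevenly. Rpl22l1, the paralog of Rpl22, read 10.60, 10.75, 10.67 and 10.92 in H/A and 10.28, 10.06, 9.85 and 10.09 in Flox. It rose in H/A by 0.66 (0.29 to 1.04, adjusted p = 0.0137) and was at 0.46 in Del (adjusted p = 0.0533). Rpl7l1, which takes part in assembly of the large subunit, rose by 0.41 in H/A (adjusted p = 0.0298) and 0.40 in Del (adjusted p = 0.0322). Rps4l rose by 0.86 in H/A (adjusted p = 0.0127) and 0.68 in Del (adjusted p = 0.0297). RefSeq classes Rps4l as a pseudogene, and its probe may share signal with its parent genes, which was not tested. Rpl32l rose in H/A by 0.68 (0.31 to 1.05, adjusted p = 0.0118), beside 0.48 for Rpl32 (0.19 to 0.78, adjusted p = 0.0192). In Del neither was called, at 0.32 and 0.33. Both are read by probes in coding sequence, and the paralogs encode much the same protein, so their signals are uncertain as to source. How far the probes share signal was not tested.
Rpl32: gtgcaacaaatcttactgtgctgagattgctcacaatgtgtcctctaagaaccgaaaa
Rpl32l: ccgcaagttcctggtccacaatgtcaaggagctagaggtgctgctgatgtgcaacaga
Rpl36al, Rpl37rt, Rpl10l and Rps23rg1 were called in 0 comparisons. Against Flox, Rpl36al was at -0.01 in H/A and 0.12 in Del, Rpl37rt at 0.05 and 0.14, Rps23rg1 at -0.28 and -0.40, and Rpl10l at 0.51 and -0.27. Rpl10l, an intronless copy of Rpl10, read 8.04, 7.87, 7.70 and 7.79 in H/A and 7.65, 7.93, 6.63 and 6.63 in WT.

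Probes of 1 gene did not always move together. Of 10 members with several kept probes, all probes had 1 sign in 7 in H/A against Flox and in 6 in Del. Rps24 was the called member with probes of opposite sign. In Del against Flox its brightest probe gave 0.41 (adjusted p = 0.0204 in the fit of all probes), another 1.09 (adjusted p = 0.0136) and the third -0.08 (adjusted p = 0.699). These match different RefSeq transcripts of Rps24, a gene known for alternatively spliced short exons near its 3′ end.

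Promoter sequences were compared by whether the gene rose. Of the 33 tested members that rose against Flox in H/A or Del, 22 had a start window, and a run of at least 8 C or T bases lay in 9 (40.9%), beside 20 of 38 other tested members (52.6%). The motif CCGGAAG, the core of ETS-family sites, was sought on both strands of the 300 bases around the start. It was in 23 of 63 members (36.5%), against 9.93% of all promoters of that length. It was in 4 of the 22 (18.2%) and 17 of the 38 (44.7%). TATAAA, sought the same way, was in 11.1% of members and 15.7% of all promoters. Matches can share bases, since the start of CCGGAAG, or of its reverse complement, can belong to a C or T run. A match is a description of the sequence and no binding site.

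The snoRNAs inside ribosomal protein genes fell in H/A and in Del, and most of their host genes did not. By RefSeq positions, 32 snoRNAs lie within the span of 23 members, 30 have a probe and 28 were tested. Strand was not compared. Against WT, 16 of 28 fell in H/A and 21 of 28 fell in Del, beside 2.97% and 4.37% of all genes lower. Against Flox, 24 fell in H/A and 28 in Del, beside 17.3% and 18.1%. None rose in any of the 4 comparisons, and 0 were called between Flox and WT or between H/A and Del. The median differences were -0.69 and -1.03 against WT, and -0.82 and -0.82 against Flox. With the 4 snoRNAs that were below background on every Del array set at their bounds, the medians in Del were -1.04 and -0.82.

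The H/A mice were not alike in these snoRNAs. Averaged over the 28, H/A replicates 1 and 3 lay at -1.45 and -1.22 relative to WT, near the Del arrays at -1.33, -1.31, -1.58 and -1.37. H/A replicates 2 and 4 lay at -0.51 and -0.58, still below all WT arrays (-0.20, -0.11, 0.30 and 0.01) and all Flox arrays (0.04, 0.33, 0.26 and 0.23). Snora21, an H/ACA snoRNA in Rpl23 (chr11:97781639-97781766), read 3.30, 6.81, 2.78 and 6.69 in H/A and 3.51, 3.37, 2.97 and 3.41 in Del. It read 7.69, 7.27, 7.82 and 7.57 in WT and 7.79, 8.13, 7.87 and 7.63 in Flox. It was below background on every Del array and at least 19.3-fold lower there than in WT (adjusted p = 0.000951), and at least 23.2-fold lower than in Flox (adjusted p = 0.000514). These bounds set the mean of the bright group against the dimmest detected signal of each Del array, or the probe's own signal where that was higher.

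Snora69 in Rpl39, Snord58b in Rpl17 and Snora70 in Rpl10 were also below background on all Del arrays. Against Flox they were lower by at least 8.1-fold (adjusted p = 0.00135), at least 6.43-fold (adjusted p = 8.7e-05) and at least 1.82-fold (adjusted p = 0.0384). Snord16a in Rpl4 stayed measurable, at 6.36, 6.26, 6.23 and 6.47 in Del against 9.84, 10.09, 10.05 and 10.13 in Flox. It read 6.83, 9.23, 6.82 and 9.16 in H/A, the same split between replicates. Snord16a fell against Flox, to a difference of -3.70 in Del (adjusted p = 0.000101) and -2.02 in H/A (adjusted p = 0.0061). Snora3 in Rpl27a read 3.97, 6.83, 4.31 and 7 in H/A, and Snora64 in Rps2 read 4.85, 7.11, 5.17 and 7.09, so replicates 1 and 3 were again the low ones. In Del against Flox these differed by -3.41 (adjusted p = 0.000983) and -3.47 (adjusted p = 0.000178). Snord83b in Rpl3 did not show that split, and read 9.05, 8.87, 9.11 and 8.59 in H/A, 9.36, 9.19, 8.79 and 8.95 in Del, with 9.76, 9.90, 9.65 and 9.48 in Flox. Its difference from Flox was -0.80 in H/A (adjusted p = 0.00304), with -0.63 for Del (adjusted p = 0.00867).

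Host and snoRNA could be subtracted on each array for 27 pairs in 19 hosts, a measure added after these values had been seen. Against Flox, the snoRNA was lower relative to its host in 25 of 27 pairs in H/A and 26 of 27 in Del, by medians of -1.25 and -1.33. Against WT it was lower in 17 and 18 pairs, by medians of -0.93 and -0.92. Of the 19 hosts, 12 rose and 1 fell in H/A against Flox, 5 rose in Del, and 0 were called against WT. Of named genes seen on every array, 22.1% rose in H/A against Flox and 22.5% in Del. Rpl3 and Snord83b were -1.81 apart in H/A (adjusted p = 0.000966), with -1.34 for Del (adjusted p = 0.00387), against Flox. Rps12 and its snoRNA Snora33 were -1.98 (adjusted p = 0.00275) and -2.14 (adjusted p = 0.00132) apart. Rps2 is the host that fell in H/A, and it holds both pairs that were not called there. Snora64 differed from it by -1.25 in H/A (adjusted p = 0.0508) and was lower relative to it by -3.16 in Del (adjusted p = 0.000431). Snora78, the other snoRNA in Rps2, differed from its host by -0.20 in H/A (adjusted p = 0.355) and -0.21 in Del (adjusted p = 0.315), and was called in neither.

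**Figure D4:**
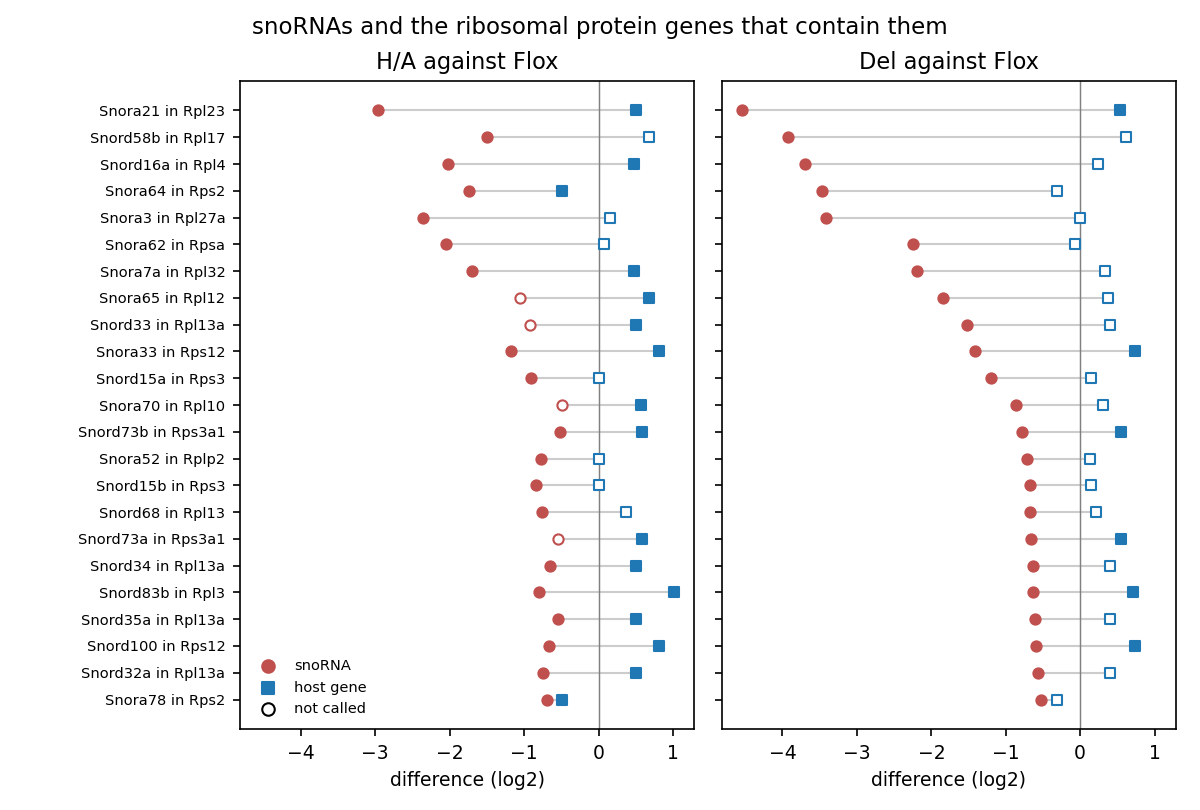
Log2 difference from Flox of 23 of the 27 snoRNAs (circles) and of the ribosomal protein genes that contain them (squares), in H/A and in Del, joined by a line and filled where called. All 23 snoRNAs lie below 0 in both panels; Snora21, Snord58b and Snora70 were below background in Del, so their points there are measured means and no fold.

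The fall was not confined to snoRNAs in ribosomal protein genes. Of 54 tested snoRNAs elsewhere, 32 (59.3%) fell in H/A and 47 (87.0%) in Del against WT, and 47 (87.0%) and 51 (94.4%) fell against Flox, with medians of -1, -1.69, -1.24 and -2.01. Their mean level split the H/A mice in the same way, at -1.90, -0.53, -1.71 and -0.48 relative to WT, with Del at -1.82 to -1.96. Before scaling, the 75th percentile of the signal was 131.2, 124.9 and 109.3 on H/A replicates 1, 2 and 3, all on slide 1, and 173.1 on replicate 4, on slide 2. The part of signal and slide in the split was not tested. Within slide 1, 0 of the 28 snoRNAs in members were called in any of the 4 comparisons, and within slide 2 16 fell in Del against WT and 20 against Flox, and 0 in H/A, which has 1 array there. Without WT replicate 3, 7 of 28 snoRNAs fell in H/A and 12 in Del against WT, and without WT replicate 4, 7 and 13. Without Del replicate 3 or 4, 12 and 13 fell in Del against WT.

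Ribosomal proteins that the symbols leave out gave like values. Fau, which encodes the small-subunit protein eS30, rose against Flox by 0.35 in H/A (0.1 to 0.6, adjusted p = 0.0355) and 0.44 in Del (0.19 to 0.69, adjusted p = 0.0132). Rack1, a scaffold protein of the small subunit, rose in H/A by 0.36 (adjusted p = 0.0499) and was at 0.27 in Del (adjusted p = 0.116). Of 13 tested elongation factors and other TOP messages, 3 rose in H/A (23.1%) and 5 in Del (38.5%) against Flox, and 0 fell. The shares higher among named genes seen on every array were 22.1% and 22.5%, so the share in H/A was near that background. Npm1, a nucleolar chaperone, rose in Del by 0.59 (adjusted p = 0.0098) and was at 0.11 in H/A (adjusted p = 0.557). Eef1b2, an exchange factor for the elongation factor that delivers tRNA, rose by 0.61 in H/A (adjusted p = 0.0328) and 0.68 in Del (adjusted p = 0.0204). Eif3f rose in H/A by 0.51 (adjusted p = 0.0116). Eef1d rose by 0.41 in H/A (adjusted p = 0.0341) and 0.66 in Del (adjusted p = 0.00384), and the mean of its probes gave -0.18 in H/A.

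Mitochondrial ribosomal proteins, which build the separate ribosome of mitochondria, were also higher against Flox. Of 68 tested, 32 rose in H/A (47.1%) and 29 in Del (42.6%), beside 22.1% and 22.5% of named genes seen on every array. Against WT, 8 (11.8%) and 5 (7.35%) rose, beside 7.08% and 8.85% of all genes, a background that includes unnamed and dim genes, and 0 were lower in all 4 comparisons. Their medians were 0.31 and 0.29 against Flox and 0.15 and 0.15 against WT, beside 0.30, 0.29, 0.18 and 0.15 for the 77 cytosolic members. Mrps22 rose against WT by 0.95 in H/A (0.58 to 1.32, adjusted p = 0.00359) and 0.78 in Del (0.42 to 1.15, adjusted p = 0.00783). Mrpl33 rose by 0.37 (adjusted p = 0.0316) and 0.45 (adjusted p = 0.00947), and Mrpl54 by 0.55 (adjusted p = 0.0196) and 0.46 (adjusted p = 0.0353). Mrpl35 rose in H/A by 0.69 (adjusted p = 0.0207) and was at 0.47 in Del (adjusted p = 0.0779). Whether the 2 families of ribosome differ was not tested.

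Factors that assemble ribosomes were also higher against Flox. Of 50 tested biogenesis factors, 17 rose (34%) and 2 fell in H/A and 18 rose (36%) and 3 fell in Del, beside 22.1% and 22.5% of named genes seen on every array that rose. Against WT, 3 rose in H/A (6%), and 2 rose (4%) and 1 fell in Del, both shares under the 7.08% and 8.85% of all genes that rose. Nop14, a small-subunit processome protein, rose in H/A against WT by 0.69 (adjusted p = 0.0319), Nop9 by 0.98 (adjusted p = 0.032) and Ncl, the nucleolar protein nucleolin, by 0.36 (adjusted p = 0.0449). Nop9 was dim, at 3.05, 3.35, 2.59 and 2.34 in WT, so the size of its rise is uncertain. Riok1, a kinase of late small-subunit maturation, rose in Del by 0.54 (adjusted p = 0.0268). Of 12 genes of RNA polymerase I and its factors, 4 rose (33.3%) and 1 fell in H/A and 5 rose (41.7%) in Del against Flox, and 1 rose in each against WT (8.33%). Polr1a, the largest subunit of the enzyme, rose in H/A against WT by 0.69 (0.31 to 1.07, adjusted p = 0.0263), and Taf1b rose in Del by 0.82 (adjusted p = 0.0466). Tcof1, which links polymerase I to rRNA processing, fell in H/A against Flox by 0.51 (adjusted p = 0.0312), a difference of 0.08 without scaling, where the median of all genes was 0.31. Taf1d rose in Del against Flox by 0.45 (adjusted p = 0.0445).

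Of 27 tested regulators of mTOR and MYC, 11 rose in H/A (40.7%) and 12 in Del (44.4%) against Flox, beside 22.1% and 22.5% of named genes seen on every array. Against WT, 5 (18.5%) and 6 (22.2%) rose, beside 7.08% and 8.85% of all genes, a background that includes unnamed and dim genes, and 0 were lower in the 4 comparisons. Rragd, a Rag GTPase that brings mTOR complex 1 to lysosomes, rose most, by 3.44 in H/A (2.55 to 4.32, adjusted p = 0.000254) and 3.44 in Del (2.56 to 4.33, adjusted p = 0.000122) against WT. Its probe was dim in the controls, at 2.01, 2.96, 1.39 and 2.89 in WT and 1.41, 1.66, 1.76 and 1.42 in Flox. The size of the Rragd rise is therefore uncertain. Rragc rose by 0.67 (adjusted p = 0.00699) and 0.56 (adjusted p = 0.0138). Mlst8, a subunit of both mTOR complexes, rose by 0.59 (adjusted p = 0.00923) and 0.71 (adjusted p = 0.00192). Eif4ebp1, the translational repressor that mTOR inactivates, rose by 0.69 (adjusted p = 0.0141) and 0.55 (adjusted p = 0.0327). Myc itself was at 1.23 in H/A (-0.24 to 2.69, adjusted p = 0.22) and 0.75 in Del (adjusted p = 0.437), and Larp1 at 0.15 (adjusted p = 0.533) and -0.12 (adjusted p = 0.612).

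**Figure D5:**
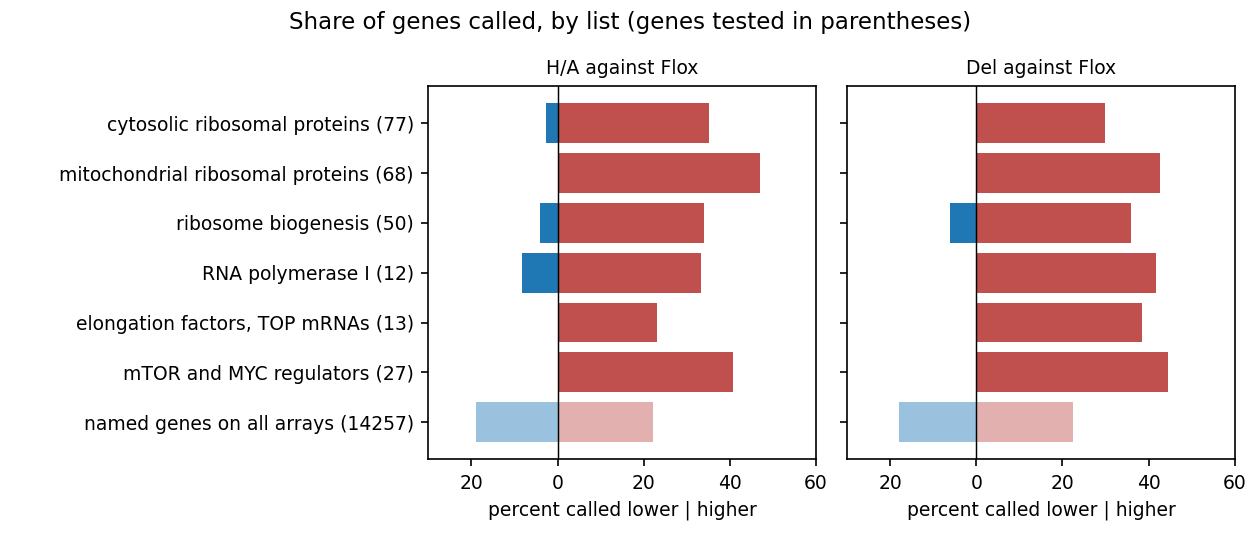
Percent of the tested genes of each list that were called higher (right) or lower (left) in H/A and in Del against Flox, with the 14257 named genes seen on every array in pale bars. The cytosolic ribosomal proteins reach 35.1% and 29.9% higher, against 22.1% and 22.5% of the named genes.

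Hepatocyte markers were high in every group. Of 8, 1 fell in each comparison of H/A or Del with WT or Flox, and their summed linear signal was 331000 to 368000 over the 16 arrays. Macrophage markers differed with genotype. Of 6 tested, 5 rose in H/A and 4 in Del against WT, and 5 and 3 rose against Flox. Their summed linear signal was 3820 to 8060 in H/A and 2970 to 3910 in Del, above 1290 to 2500 in WT and 1560 to 2290 in Flox. Of 3 neutrophil markers, 2 rose in H/A and 1 in Del, with sums of 289 to 714 and 245 to 293 against 58.9 to 202 in WT. Neither sum of WT arrays overlapped those of H/A or Del. Lymphocyte markers summed to 288 to 409 in H/A and Del and 352 to 443 in WT and Flox. Cd8a, the brightest of the 7 tested with a WT mean of 7.76, weighs most in these lymphocyte sums. Against WT, 1 of the 7 rose in H/A and 1 in Del, while 4 and 5 had negative differences, none of them called. Against Flox, 0 were called. Of 7 stellate cell and fibroblast markers, 1 rose and 1 fell in H/A and 3 rose in Del against Flox, and 0 were called against WT. They summed to 8940 to 9990 in H/A and 9280 to 11700 in Del, above 7840 to 8410 in Flox, with 7630 to 10400 in WT. Erythroid markers summed to 439 to 1470 in H/A and 722 to 1840 in Del, below 2290 to 2570 in WT, with 930 to 3280 in Flox. Alas2, the brightest of the 5 tested with a WT mean of 11.04, weighs most in these sums. Hbb-bt was the 1 marker of the 5 with a positive difference in H/A. It was at 1.54 in H/A against WT (adjusted p = 0.0957) and rose by 2.18 against Flox (adjusted p = 0.0153). In Del it was at 0.79 against WT (adjusted p = 0.343) and 1.43 against Flox (adjusted p = 0.0693). Of 3 cholangiocyte markers, Sox9 rose against Flox, by 1.08 in H/A (adjusted p = 0.0178) and 1.09 in Del (adjusted p = 0.017). The part of these cell types in the values of the ribosomal protein genes was not tested.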

How the data were processed

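Per the labels' protocols, liver RNA was primed with random and oligo-dT primers and labelled with Cy3. Intensity in the scanner files is background-subtracted, per the file headers. Tools in the submitters' processing notes are Agilent Feature Extraction 11 and Partek. In the deposited value table (log2), all 16 columns share a median of 4.36. For 6 of 16 samples the listed scanner file was not at the slide and position of the label; all 16 columns correlated best with the file of the label, which gave the detection flags. Symbols came from RefSeq transcripts (GRCm38.p6) for 36264 of 60037 probes. A probe was kept if 4 or more of 16 arrays had it well above background, and the brightest stood for a gene. The 6 comparisons were tested in 1 fit of all 16 arrays (limma 3.58.1, R 4.3.3), checked on simulated data. Members and lists were chosen with earlier results of these data known. Named members are the 4 largest called changes in each direction, or the 3 smallest p-values, per comparison, all other copies, members whose probes disagree, and per list the 4 smallest p-values against WT; other names and the snoRNAs elsewhere were chosen after their values were seen. Alternatives changed scaling, background, filter, probe, moderation, array weights, slide, file pairing, groups fitted and arrays left out. A few genes are not reported here by name, though counts include them.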

Additional observations from a re-analysis of the deposited data

Results flagged for a closer look

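Of 308 groups of 4 arrays examined, 20 held an array far from the other 3, where chance gives about 1 in 20. H/A replicate 3 accounts for 7 of them. It was the highest H/A array for Rpl41 at 11.62 (others 11.01 to 11.07), Rpl32l at 12.61 (12.12 to 12.19), Rpl37a at 14.30 (14.06 to 14.09), Mrpl35 at 8.59 (8.25 to 8.29), Npm1 at 9.06 (8.79 to 8.82), Snord34 at 7.79 (7.26 to 7.32) and Snord35a at 6.98 (6.79 to 6.81). Among other members, Rpl22l1 was highest on Del replicate 3 at 10.96 and Rpl36al on Del replicate 1 at 12.43. Rps2 was highest on H/A replicate 1 at 9.76, Rpl37rt lowest on WT replicate 3 at 13.77, and Rpl7l1 lowest on Flox replicate 1 at 8.42. Fau was highest on Flox replicate 4 at 14.17 and Taf1d on Del replicate 1 at 8.91. Of the snoRNAs, Snora70 was lowest on WT replicate 1 at 4.29 and on Flox replicate 1 at 4.06, and Snord38a on Flox replicate 1 at 4.57. Snord55 was lowest on WT replicate 2 at 9.74, Snord68 lowest on Del replicate 3 at 6.70, and Snord58b highest on Del replicate 2 at 2.13, below background.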

How the results depend on the processing

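No paired analysis was possible because the replicate numbers follow accession order alone and tie no mice together. Members called higher in H/A and Del against WT and in H/A and Del against Flox, in that order, were 0, 1, 27 and 23. They were 53, 0, 65 and 6 with no scaling, 0, 0, 33 and 22 with 75th percentile scaling, and 0 in all 4 with the scanner files as listed. They were 3, 4, 35 and 28 with normexp, 0, 3, 31 and 26 with trend and robust moderation, 26, 3, 39 and 24 with array weights, and 0, 2, 25 and 29 with the label's slide as a block. Blocking on the file name's slide gave 0, 0, 0 and 20, within slide 1 0 in all 4, within slide 2 0, 0, 0 and 3, and with the 2 groups alone 0, 0, 30 and 12. Members lower in H/A against Flox were 2, and 0 with no scaling, the files as listed, the file-name block or within a slide. With array weights, 4 were lower in H/A against WT. With no scaling, the median member difference was 0.68 and 0.90 in H/A against WT and Flox and 0.49 against Del, where all genes had 0.37, 0.31 and 0.40; within slide 2 it was 0.37 in H/A against WT. snoRNAs in members called lower, in the same order, were 16, 21, 24 and 28. They were 2, 12, 7 and 19 with no scaling, 0 with the files as listed, 14, 10, 3 and 25 with the file-name block, 0 within slide 1, 0, 16, 0 and 20 within slide 2, and 6, 14, 24 and 27 with the 2 groups alone. With the files as listed, 0 pairs of snoRNA and host were called, and with the file-name block 11, 8, 6 and 26.

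Leaving out each array gave 0 to 12, 1 to 9, 9 to 33 and 5 to 29 members higher. It gave 0 to 1 lower in H/A against WT, 0 to 2 lower in H/A against Flox and 0 to 1 lower in Del against Flox. For snoRNAs it gave 7 to 19, 12 to 22, 20 to 25 and 22 to 28 lower, and for pairs 7 to 20, 9 to 23, 22 to 25 and 22 to 26. With no scaling, Snord35a turned to 0.06 (H/A against WT), and in H/A against Flox Rps2 and Rps15a turned to 0.14, Rpl36al to 0.69 and Tcof1 to 0.08. Since all genes then had medians of 0.37 and 0.31, Rpl36al alone of these 5 lay above that shift. With the mean of its probes, Eef1d turned to -0.18 in H/A against Flox. Of 13386 values of named genes, all-gene medians and shares, and counts of pairs under the alternatives, 12064 were counted as unchanged. A gene that changed sign but was called in neither fit also counted as unchanged. Of the gene values, 1027 lost a call, 191 gained one and 6 turned, while the 98 that moved were medians, shares or counts. Where an arm kept 1 array on a slide, its spread was taken from the other groups. By file name, every H/A array lay on slide 1 and every Del array on slide 2. The file-name block was therefore estimated from WT and Flox alone. The cause of these changes was not tested, beyond the smaller number of arrays within a slide or in a fit of 2 groups.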
